A study of Mus musculus with 48 samples.

Results

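The transcriptome of whole blood was compared between 6 ovariectomized, stressed mice (OVX+CUMS mice) and 6 sham-operated, non-stressed mice (control mice). These are 12 of the 48 arrays of a study of a mouse model of depression, chosen by the sample titles alone. All mice were female C57BL/6J animals aged 17 weeks. The control mice had a sham operation and no stress, and the OVX+CUMS mice had lost both ovaries and were then kept under chronic ultra-mild stress (CUMS), a schedule of mild and changing nuisances without pain. Both treatments were given together in every OVX+CUMS mouse, so the comparison gives their joint difference and does not separate surgery from stress. The 12 other blood arrays, from 6 OVX mice without stress and 6 CUMS mice with a sham operation, are used below only for what they show about the same probes. The labels give each array its own mouse. RNA came from the pellet of 300 µl of heparinized blood, 100 ng of it was labelled per array, and 1 Agilent one-colour array of 55681 probes was read per mouse. Of these probes, 25186 were well above background on all 12 arrays and were tested.

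Whole blood RNA is a mixture. Red cells and reticulocytes contribute globin and haem enzyme transcripts, platelets contribute chemokine and adhesion transcripts, and neutrophils, monocytes, B cells, T cells and NK cells each contribute a set of their own. Oestrogen withdrawal and stress hormones are both known to act on lymphocytes, on granulocyte release and on iron handling, and a shift in any of these can change the mixture as well as the RNA of each cell. In a bulk sample, fewer cells of a type and less RNA per cell cannot be told apart.

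The labelled tissue was checked by its defining genes. Hba-a1, Alas2, S100a8, Csf1r, Cd79a, Cd3e, Gzma and Pf4 were detected on all 12 arrays, and the neutrophil gene Ngp was above background on 3 arrays of each group and the eosinophil gene Epx on 0. Of genes that define other tissues, the fat genes Adipoq and Cfd, the liver genes Apoa1 and Ttr, the pancreatic gene Pnlip and the endothelial gene Cdh5 were above background on 0 arrays. The endothelial gene Kdr was above background on all 12, the pancreatic gene Cpa1 on 6 control and 5 OVX+CUMS arrays and the liver gene Alb on 3 and 4. Lep, Plin1, Cela1, Col1a1, Col3a1 and Dcn were above it on at most 1 control and 2 OVX+CUMS arrays. Brightness differed little, with the 75th percentile of the signal at 81.3 to 132 (median 110) on control and 103 to 144 (median 125) on OVX+CUMS arrays (exact two-sided permutation test, p = 0.126). More probes were above background in OVX+CUMS mice, 30187 to 32601 against 28126 to 30947 (exact permutation test, p = 0.013). Spike-in RNA was 0.15 log2 brighter on the OVX+CUMS arrays (exact permutation test, p = 0.0087), and the scanner software had marked 6 of 6 OVX+CUMS and 3 of 6 control arrays for evaluation.

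The groups shared no slide. All 6 control arrays were hybridised on slide 1 together with 2 CUMS arrays, all 6 OVX+CUMS arrays on slide 3 together with 2 OVX arrays, and slide 2 carried the remaining 4 CUMS and 4 OVX arrays. The local background around the spots was 19 units on each array of slide 1 and 17 on each array of slide 3. Slide and group therefore cannot be told apart by the 12 arrays on their own. In OVX+CUMS replicate 5, the granule and myeloid transcripts were far above those of the other arrays of its group and the T and B cell transcripts below them. The mean correlation of replicate 5 with its group, 0.967, was below the 0.980 to 0.984 of the other OVX+CUMS arrays. Control replicate 2 was low in platelet transcripts and had a mean correlation of 0.977, against 0.987 to 0.989 for the other controls.

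Of the 25186 probes, 2738 (10.9%) differed between OVX+CUMS and control mice at an adjusted p under 0.05 (limma, Benjamini-Hochberg), 1255 of them higher (4.98%) and 1483 lower (5.89%). The groups did not overlap for 907 probes that were higher and 930 that were lower, together 7.29% of the probes tested. Rises were larger than falls: 525 of the higher probes rose by more than 1 on the log2 scale and 37 of the lower probes fell by more than that, and the median change was 0.90 among risen and -0.54 among fallen probes. Rises were more frequent among dim probes and falls among bright ones. When the probes were split by signal into 5 equal classes, 279 were higher and 158 lower in the dimmest class, and 91 were higher and 604 lower in the brightest. The median signal was 94.9 for risen probes, 420 for fallen probes and 149 for all. Without replicate 5, 2242 of the 2738 probes (81.9%) were still past the threshold. The share of higher calls was 45.8% here, 52.2% after quantile normalization, 58.1% when the percentile was taken over detected probes and 65.4% when arrays were shifted by the spike-in RNA. The number of falls changed most, to 1098, 924 and 618, and the number of rises was 1200, 1282 and 1170. Without OVX+CUMS replicate 1, 1144 probes rose and 940 fell. The share of higher calls was 70.8% with no filter on dim probes and 69.5% in a fit of all 24 blood arrays. With slide as a block over the 24 arrays, which estimates the group difference through the CUMS and OVX arrays that span slides, 0 probes passed the adjusted threshold in limma and 1573 had an unadjusted p under 0.05, with the median SE at 0.381 in place of 0.148.

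**Figure D1:**
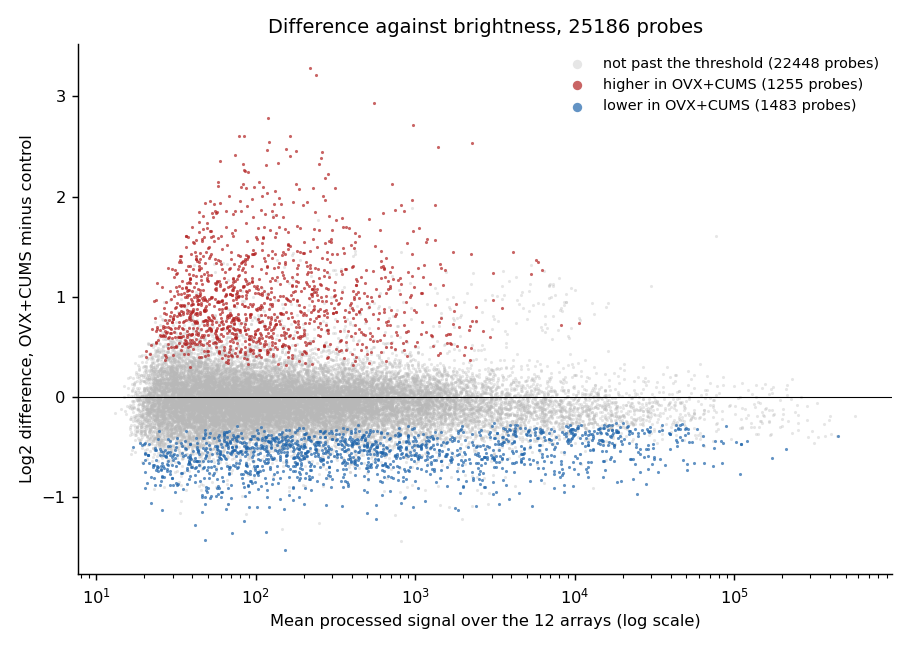
Log2 difference between OVX+CUMS and control mice (vertical axis) against the mean processed signal over the 12 arrays (horizontal axis, log scale) for 25186 probes. The 1255 risen probes (red) lie mostly at low signal with a median of 94.9, and the 1483 fallen probes (blue) reach the brightest signals with a median of 420.

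When each gene was taken by its brightest detected probe, 11903 named genes could be compared, of which 941 (7.91%) passed: 399 were higher (3.35%) and 542 lower (4.55%). The groups did not overlap for 291 genes that were higher and 319 that were lower, the latter 2.68% of the genes. The median difference over all genes was -0.05. These are the figures against which the gene groups below are read. They were not matched for signal, although falls were more frequent among bright probes. The gene lists were chosen with earlier results of these data known, so a share above these figures is a description and not a test. The 74 gene lists examined held 2348 detected genes, 66 of them higher and 121 lower. In 24 of the 74 lists no member passed, and in 19 the share that passed was above that of all genes.

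The probes of one gene often differed in whether they passed. Of 2835 genes with more than 1 detected probe, 330 had at least 1 probe past the threshold, and every probe passed upward in 3 of these and downward in 12. In 304 genes some probes passed and others did not, and in 11 genes probes passed in opposite directions. In 172 of the 330 genes the differences of all probes lay on one side of 0. The 3 genes with every probe higher were Csn1s2b, which encodes a milk casein, Brsk2, a kinase of nerve cells, and Cyp4a31, a fatty acid hydroxylase. Among the 12 with every probe lower were the ribosomal protein genes Rps2, Rps10, Rpl39 and Rpl10, the growth factor gene Igf1 and the imprinted gene Mest. With slide as a block every probe was above 0 in the 3 higher genes and below 0 in 7 of the 12 lower ones. For Mest the probes were at -1.64 and -1.55 in that fit, after -0.80 and -0.69 between the groups. Both Igf1 probes were above 0 there, at 0.15 and 0.46. Apart from Csn1s2b and Igf1, these genes were picked out after their values were seen.

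The probes themselves are 60 bases long, and the share that differed varied with what they target and with their sequence. LincRNA regions, which are stretches of the genome chosen for the array because they were thought to give long noncoding RNA, accounted for 5147 of the probes tested, and 19.7% of them differed, 524 upward and 488 downward. Of 14608 probes for RefSeq mRNAs, 7.11% differed, 448 upward and 590 downward. The share also followed the longest uninterrupted stretch of C and T in the probe. It was 7.23% of the 10844 probes with a stretch of up to 5 bases, 11.2% with 6 to 7 bases, 13.9% with 8 to 9, 18.9% with 10 to 11, and 22% of the 1169 probes with 12 or more bases. Falls made up most of this increase, at 4.01% of probes in the first class and 15.1% in the last, against 3.22% and 6.93% for rises. Among probes with a signal of at least 1000 the share that fell went from 9.22% to 27.0% over the same classes, and below that signal from 2.88% to 11.4%. A stretch of 12 or more was found in 4.65% of all probes, 6.45% of the risen and 11.9% of the fallen ones. This grouping by sequence was chosen after the values were seen.

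To show which sequences lay behind the largest changes, the 4 largest rises and 4 largest falls among the 570 lincRNA-region probes that passed with and without replicate 5 and did not overlap (364 higher, 206 lower) are printed here as read from the array files, 5′ to 3′, with the longest stretch of C and T in capitals. Regions are those of the array design in the mouse build mm9, and the line names the region, not the probe. The first 4 rose and the last 4 fell.
chr3:51990494-51991875: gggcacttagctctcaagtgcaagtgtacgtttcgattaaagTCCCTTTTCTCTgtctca
chr1:42689799-42749799: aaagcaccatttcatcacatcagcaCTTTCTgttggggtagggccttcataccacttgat
chr7:48853209-48886010: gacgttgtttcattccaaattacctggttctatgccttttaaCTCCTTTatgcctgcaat
chr7:80763588-80764230: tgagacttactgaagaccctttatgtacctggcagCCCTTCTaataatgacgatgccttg
chr9:100977450-100989325: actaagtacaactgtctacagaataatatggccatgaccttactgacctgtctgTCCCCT
chr8:122920901-123008463: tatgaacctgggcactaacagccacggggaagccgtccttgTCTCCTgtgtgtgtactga
chr9:56913341-56913901: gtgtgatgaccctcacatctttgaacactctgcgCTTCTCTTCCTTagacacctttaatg
chr11:69186873-69187472: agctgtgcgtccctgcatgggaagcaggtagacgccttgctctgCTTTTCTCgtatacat

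The level of the first region, on chromosome 3, was -2.17 to -0.57 (median -1.83) in control mice and 1.35 to 1.94 (median 1.61) in OVX+CUMS mice, where a level is the log2 signal minus the 75th percentile of the array. It rose by 3.28 ± 0.23 (SE, n = 6 and 6; adjusted p = 1.6e-06), a 9.73-fold change, and its difference with slide as a block was -0.06. The region at chr7:80763588-80764230 stood at 0.82 to 1.28 (median 1.07) in control and 3.48 to 4.09 (median 3.72) in OVX+CUMS mice and rose by 2.71 ± 0.13, with 0.33 with slide as a block. Of the falls, the region at chr9:56913341-56913901, whose probe holds 12 bases of C and T, stood at 4.12 to 4.74 (median 4.40) in control and 2.83 to 3.65 (median 3.36) in OVX+CUMS mice. It fell by 1.10 on the log2 scale (adjusted p = 0.00051), and with slide as a block its difference was 1.22. The groups were apart in all 8 of these regions, and all 4 falls lay above 0 with slide as a block, with SEs of 0.40 to 0.66.

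Among the named genes, 30 bases around the stretch are shown for the 2 risen and 2 fallen probes with the longest one, where the array files give a position. Their probes lie at chr5:31258304-31258363 (Preb, minus strand), chr5:138277047-138277106 (Pilra, minus strand), chr10:6881822-6881881 (Ppp1r14c, minus strand) and chr7:53138602-53138661 (Kdelr1, plus strand) of mm9. Preb, which drives prolactin transcription and vesicle formation at the endoplasmic reticulum, and Pilra, an inhibitory receptor of myeloid cells, rose. Ppp1r14c, an inhibitor of a protein phosphatase, and Kdelr1, which returns resident proteins to the endoplasmic reticulum, fell. The stretch in the Ppp1r14c probe is a repeat of CCTT, 33 bases long, of which 30 are shown.
Preb: actgCTCTTTTCTCTgtggctgtggatagt
Pilra: aacccttcaCTCTCTTTCCTgtcccactag
Ppp1r14c: CCTTCCTTCCTTCCTTCCTTCCTTCCTTCC
Kdelr1: tctgatgaCTTTTTTCTCTTCTacctggcc

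Stretches of A and G showed another pattern. Among the 145 probes with 20 or more such bases in a row the median difference was 0.86, 8 passed upward and 3 downward, and the median SE was 0.381, against 0.148 over all probes. The arrays of each group split. Control replicates 3, 4 and 5 had a mean level of 3.11 to 3.47 for these probes and control replicates 1, 2 and 6 of 1.86 to 2.19, while OVX+CUMS replicates 2, 3 and 5 had 3.72 to 3.82 and replicates 1, 4 and 6 had 2.83 to 2.90. The 14664 probes with no stretch of either kind over 7 bases lay between 0.72 and 0.78 on all 12 arrays. This split among arrays of one group and one slide was noticed in the data and has no label in the sample descriptions.

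**Figure D2:**
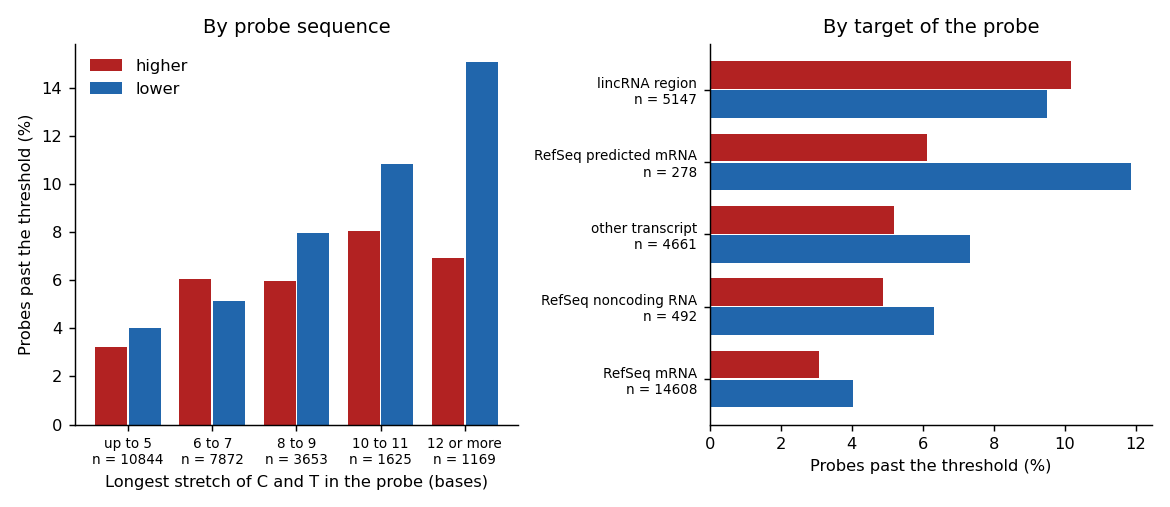
Percent of probes past the adjusted threshold, higher (red) and lower (blue) in OVX+CUMS mice, by the longest stretch of C and T in the probe (left) and by the target of the probe (right), with the number of probes tested under each class. The share of fallen probes goes from 4.01% to 15.1% with the length of the stretch, and lincRNA regions hold the highest share of risen probes at 10.2%.

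The named genes with the largest rises are best known from other tissues. They were taken from 626 probes that passed with and without replicate 5 and did not overlap. Sfrp4, a secreted inhibitor of Wnt signalling, stood at -2.74 to -2.18 (median -2.50) in control and -0.28 to 0.52 (median 0.09) in OVX+CUMS mice, and it rose by 2.61 ± 0.16 (adjusted p = 7.2e-07), a 6.10-fold change. Abcg4, a sterol transporter, rose by 2.61 ± 0.21 by one probe, but its other 2 detected probes differed by -0.24 and 0.12. Grik3, a kainate receptor subunit of neurons, rose by 2.41 ± 0.15, from a median of -1.29 to 1.17. Cacng6, an auxiliary calcium channel subunit, rose by 2.34 ± 0.15, from -1.51 to 0.93. Ahsg, the plasma protein fetuin-A made by the liver, rose by 2.12 ± 0.15, and Prodh2, a liver enzyme of hydroxyproline breakdown, by 2.11 ± 0.21. The 6 probes had a mean signal between 57.7 and 717, and for each of them the highest control array was below the lowest OVX+CUMS array. Blocking by slide, their differences were 0.15 to 1.05 for the 5 other than Abcg4, and -0.23 for Abcg4, with SEs of 0.49 to 0.80.

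The largest falls were smaller. Kdelr1 went from -0.33 to 0.65 (median -0.06) in control to -1.71 to -0.64 (median -1.25) in OVX+CUMS mice, a difference of -1.23 ± 0.20 (adjusted p = 0.0013) by the probe shown above, and its other, brighter probe differed by 0.24. D0Kist5 fell by 1.12 ± 0.15 and Ifna16, an interferon alpha gene of a family with near-identical members, by 1.10 ± 0.17. Pak7, a kinase of neurons, fell by 1.09 ± 0.19 and by 0.62 by its other probe. Taar4, an olfactory receptor for trace amines, fell by 1.09 ± 0.16, and Mrvi1, a regulator of calcium release in smooth muscle and platelets, by 1.06 ± 0.17, with -0.14 at its other probe. The groups were apart for all 6, and all 6 differences were above 0 with slide as a block, with SEs of 0.49 to 0.82.

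Among bright probes, with a signal of at least 1000, the long noncoding RNA gene NRON, which holds the transcription factor NFAT in the cytoplasm, was 1.89 to 2.75 (median 2.17) in control and 3.61 to 4.13 (median 3.87) in OVX+CUMS mice. It rose by 1.57 ± 0.16 (adjusted p = 2.5e-05), whereas its second, brighter probe fell by 0.48 (adjusted p = 0.031). Lims2, an adaptor at integrin contacts, rose by 1.55 ± 0.15, Preb by 1.29 ± 0.11 and Pilra by 1.03 ± 0.13. The other 2 probes of Preb differed by -0.01 and 0.14, and the other 3 of Pilra by 0.00 to 0.32. Rtl6, a gene derived from a retrotransposon, rose by 0.92 ± 0.12 with -0.12 at its second probe, and Csn1s2b by 0.89 ± 0.12 with 0.68 at its second. The falls among bright probes were Taar4, Serping1 (-1.06 ± 0.16), which encodes the C1 inhibitor of complement, Fgfbp3 (-1.03 ± 0.17), a carrier of fibroblast growth factors, the nicotinic receptor gene Chrna4 (-1.01 ± 0.16), Ppp1r14c (-0.97 ± 0.16) and the neuronal calcium-binding gene Caln1 (-0.95 ± 0.16). Serping1 stood at 5.08 to 5.63 (median 5.25) in control and 3.75 to 4.63 (median 4.39) in OVX+CUMS mice. With slide as a block the rises were at 0.03 to 0.67, with SEs of 0.41 to 0.69. The 5 falls other than Taar4 were at 0.16 to 1.15, with SEs of 0.38 to 0.66.

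A part of the T cell transcripts was lower in OVX+CUMS mice. Of 26 genes of the T cell list, 6 fell and none rose (6 lower is 23.1%, against 4.55% of all genes), 25 had a difference below 0, and the median was -0.35. Cd3e, a chain of the T cell receptor complex, was 4.65 to 4.87 (median 4.79) in control and 4.03 to 4.59 (median 4.50) in OVX+CUMS mice, a difference of -0.37 ± 0.10 (adjusted p = 0.036) with groups that did not overlap. Cd8b1, a co-receptor chain of cytotoxic T cells, went from 4.15 to 4.56 (median 4.25) to 3.14 to 4.05 (median 3.70) and fell by 0.67 ± 0.15. Il7r, the receptor for the survival cytokine IL-7, fell by 0.59 ± 0.15, Cd4, the co-receptor of helper T cells, by 0.53 ± 0.14, and Lef1, a transcription factor of naive T cells, by 0.66 ± 0.18 (second probe -0.33), each with groups that overlapped. Of the other receptor complex genes, Cd3d differed by -0.42 (adjusted p = 0.066), Cd3g by -0.36 (adjusted p = 0.15) and the kinase gene Lck by -0.18 (adjusted p = 0.50), none past the threshold.

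Without replicate 5 the T cell median was -0.21 and 4 genes fell, namely Cd8b1, Il7r, Lef1 and Cd3e, and Cd4 was at -0.48 (adjusted p = 0.051). The count was sensitive to single arrays and to scaling. It was 1 without control replicate 1 or 6, 2 without control replicate 3 or OVX+CUMS replicate 1 and 3 without control replicate 4 or OVX+CUMS replicate 3, and it was 2 with the percentile over detected probes and 1 with quantile normalization or the spike-in shift, while the median stayed between -0.39 and -0.21 over all of these. The summed level of the list was 354 to 455 in control and 206 to 352 in OVX+CUMS mice. The median of the 26 genes with slide as a block was -0.50 and 23 were below 0, with Cd3e at -0.28 ± 0.22 and Cd8b1 at 0.26 ± 0.47. Some other blood lists lay lower in that fit, with medians of -0.61 for monocytes, -0.64 for platelets and -1.09 for eosinophils and basophils. The neutrophil median there was -0.47.

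Among cytotoxic and NK cell transcripts the calls were also all downward. Of 23 genes, 5 fell and none rose (21.7%, against 4.55% of all genes lower), and the median was -0.22. In 4 of the 5 every OVX+CUMS array was below every control array, which held for 2.68% of all genes. Gzmm, a granzyme of NK cells, was -0.62 to -0.03 (median -0.30) in control and -1.17 to -0.79 (median -1.10) in OVX+CUMS mice and fell by 0.71 ± 0.11 (adjusted p = 0.0011). Prf1, the pore-forming perforin, was 2.87 to 3.00 (median 2.95) in control and 2.40 to 2.72 (median 2.59) in OVX+CUMS mice and fell by 0.37 ± 0.08. Its level in CUMS mice was 2.83 and 3.01 on slide 1 and 2.30 to 2.40 on slide 2. In OVX mice it was 2.06 to 2.32 on slide 2 and 2.59 and 2.65 on slide 3. The protease gene Ctsw fell by 0.48 ± 0.12 and Nkg7, a protein of cytotoxic granules, by 0.35 ± 0.09, with -0.17 at its second probe. Gzma (-0.16) and the NK receptor gene Ncr1 (-0.10) did not pass. Without replicate 5 the 4 named genes all passed, the list median was -0.17 and 4 genes fell, and without OVX+CUMS replicate 3 the count was 3. With the spike-in shift no gene of the list passed and the median was -0.17. With slide as a block the median was -0.23 and 20 of the 23 were below 0, against a median of -0.20 over all RefSeq mRNA probes. The Gzmm difference in that fit was -1.0 ± 0.32 (limma, unadjusted p = 0.0049), and 0 probes passed the adjusted threshold there.

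Of 23 B cell genes none passed in limma with all arrays, none had an unadjusted limma p under 0.05, and the median was -0.08, or 0.04 without replicate 5, when 1 gene was higher. Cd79a and Cd79b, which encode the signalling chains of the B cell receptor, and Ms4a1, which encodes the surface protein CD20, differed by -0.01, -0.13 and 0.21. The genes with the smallest p were Fcer2a (-0.33), Fcmr (-0.28), Fcrla (-0.25) and Vpreb3 (0.27), with adjusted p of 0.35 to 0.56. Fcmr stood at 5.79 to 6.38 in control mice, and in OVX+CUMS mice at 5.80 to 6.23 in 5 arrays and at 5.07 in replicate 5.

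**Figure D3:**
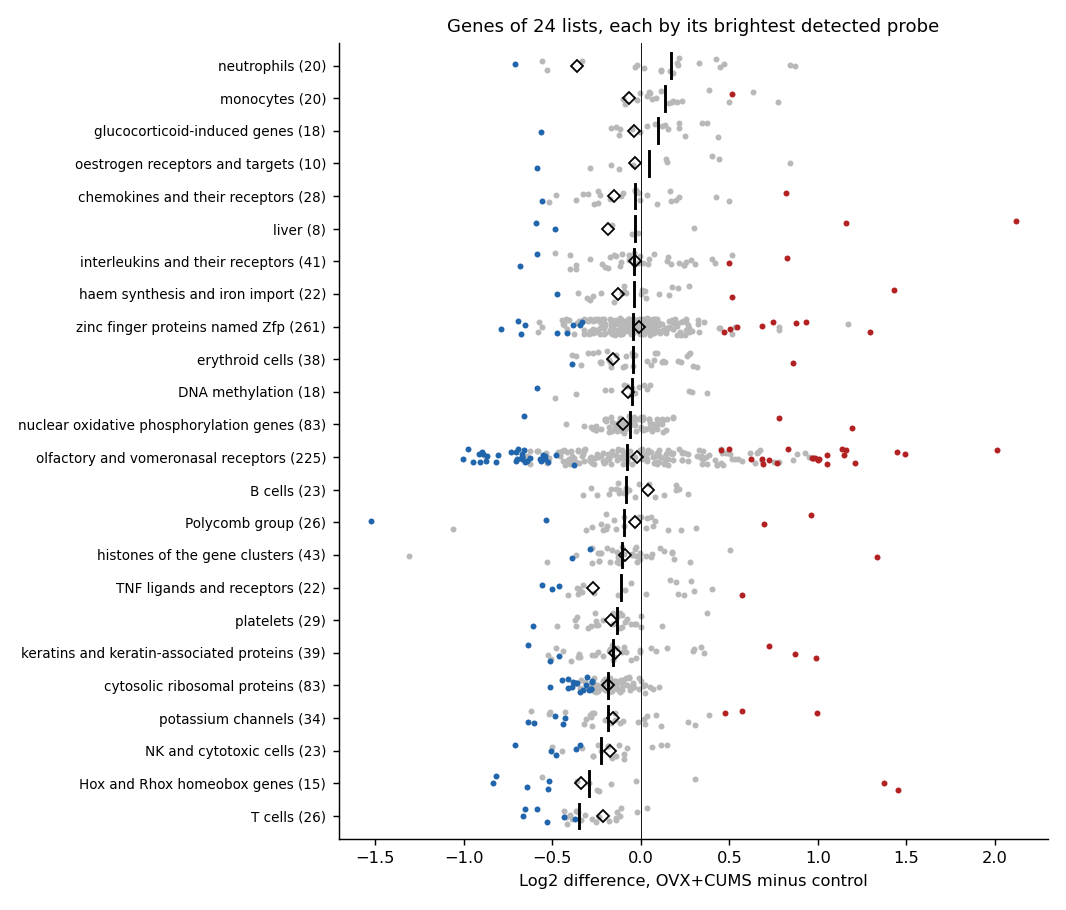
Log2 difference between OVX+CUMS and control mice for the genes of 24 lists, each gene by its brightest detected probe, with the number of detected genes in parentheses. Red and blue points passed the threshold upward and downward and grey points did not, black bars are list medians and open diamonds the medians without OVX+CUMS replicate 5. The T cell median is -0.35 (-0.21 without replicate 5), and the neutrophil median changes sign, from 0.17 to -0.36.

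Neutrophil transcripts depended on replicate 5. Of 20 genes 1 passed, and the median was 0.17 with all arrays and -0.36 without replicate 5, when 5 genes fell. The gene that passed was Elane, a serine protease of primary granules, at 5.12 to 5.42 (median 5.19) in control and 4.23 to 4.82 (median 4.48) in OVX+CUMS mice, a fall of 0.71 ± 0.11 (adjusted p = 0.0011). Elane in CUMS mice was at 5.16 and 6.05 on slide 1 and 4.23 to 4.71 on slide 2. In OVX mice it was at 3.46 to 3.87 on slide 2 and 4.07 and 4.22 on slide 3. In replicate 5 the secondary granule gene Ltf was at 5.26 against -2.12 to -1.38 in the other 5 OVX+CUMS arrays, Camp at 5.35 against 1.59 to 1.95, Lcn2 at 6.96 against 2.60 to 3.52, S100a8 at 9.81 against 5.97 to 6.47 and S100a9 at 11.2 against 8.00 to 8.66. Without it, S100a8 differed by -0.39, S100a9 by -0.15, Ltf by -0.33, Lcn2 by -0.17 and Camp by 0.27, none past the threshold. The other genes of the list with small p were Ctsg, another granule protease (-0.53, adjusted p = 0.17), and Cebpe, a transcription factor of granulocyte maturation (-0.34, and -0.46 with adjusted p = 0.042 without replicate 5). The summed level was 823 to 1070 in control mice, up to 4234 in replicate 5 and from 858 in the others of its group.

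The monocyte median also depended on replicate 5. Of 20 genes 1 passed, Ace, the angiotensin-converting enzyme, which rose by 0.51 ± 0.12 from -0.22 to 0.28 (median -0.02) to 0.29 to 0.80 (median 0.48). Csf1r, the growth factor receptor of the lineage, stood at 7.16 in replicate 5 and 5.21 to 5.48 in the other OVX+CUMS arrays, and at 5.42 to 5.97 in control mice. The list median was 0.13, or -0.06 without replicate 5, and without that array Csf1r differed by -0.25, Ccr2 by 0.08, Cx3cr1 by -0.25, Lyz2 by -0.45, Cd14 by 0.22 and Clec4a3 by 0.20, none past the threshold.

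Of the red cell list 5.26% passed and of the platelet list 3.45%, against 7.91% of all genes. Of 38 erythroid genes, Xpo7, a nuclear exporter of maturing red cells, rose by 0.86 ± 0.15 (adjusted p = 0.0021) and Hba-a2, an alpha globin gene, fell by 0.39 ± 0.11 (adjusted p = 0.042, and 0.064 without replicate 5). No erythroid gene fell without any one of control replicates 3, 4 and 5 or OVX+CUMS replicates 1 to 5. The erythroid median was -0.05, or -0.16 without OVX+CUMS replicate 5 and 0.04 without control replicate 2. The globin genes Hbb-bt and Hbb-b2 differed by -0.39 and -0.37 and the near-identical Hba-a1 by -0.19, so that the share of each copy is uncertain. Alas2, which starts haem synthesis in red cells, differed by -0.27, and the membrane protein gene Slc4a1 by 0.23. Of 29 platelet genes, P2rx1, an ATP-gated channel, fell by 0.61 ± 0.17 (adjusted p = 0.035), and the list median was -0.14. Pf4, Ppbp and Itga2b differed by -0.11, -0.26 and -0.03, and Vwf, Gp6 and Sparc by -0.47, -0.37 and 0.37 (adjusted p = 0.19 to 0.35). In control replicate 2, Pf4 was at 7.19 against 8.56 to 8.94 in the other controls and Ppbp at 5.93 against 7.52 to 8.18. Without that array 9 platelet genes fell and the median was -0.35, and without any one of control replicates 3, 4 and 5 or OVX+CUMS replicates 1, 3, 4 and 5 none passed. With slide as a block the erythroid median was 0.62, with 4 of 38 genes below 0, and the platelet median -0.64, with 27 of 29 below 0.

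Liver transcripts moved in both directions. Of 8 detected liver genes 2 rose and 2 fell (50%, against 7.91% of all genes). Ahsg and the protease inhibitor gene Serpina1a (1.16 ± 0.17, second probe -0.33) rose, while Apoa2, an apolipoprotein, and Fgb, the fibrinogen beta chain, fell by 0.60 ± 0.15 and 0.49 ± 0.12. The defining liver genes Alb, Apoa1 and Ttr were not detected on all arrays, and the summed level of the list was 60.6 to 87.6 in control and 50.7 to 213 in OVX+CUMS mice, with the highest value in replicate 5.

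Cytosolic ribosomal protein genes were mostly lower when arrays were scaled to the 75th percentile. Of 83 genes, 17 fell and none rose (20.5%, against 4.55% of all genes), 77 had a difference below 0, and in 22 (26.5%, against 2.68%) every OVX+CUMS array was below every control array. The shares of all genes are not matched for signal, and this family is bright. Among the 5 equal signal classes of all probes, 604 fell and 91 rose in the brightest, against 158 and 279 in the dimmest. Whether the family fell more often than other genes of the same brightness was not tested. Rpl28 went from 8.52 to 8.74 (median 8.67) to 8.01 to 8.25 (median 8.14), a fall of 0.51 ± 0.08 (adjusted p = 0.0013), with -0.08 at its second probe. Rps29 went from 9.19 to 9.39 (median 9.26) to 8.82 to 8.99 (median 8.87), a fall of 0.38 ± 0.08, with -0.16 and -0.21 at its other probes. Rps13 fell by 0.39 ± 0.09, with -0.17 at its second probe. The falls were small and even, with a list median of -0.18 and the same value without replicate 5, when 16 genes fell.

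This family was sensitive to the scaling of bright probes. After quantile normalization its median was -0.01 and 1 gene fell, with the spike-in shift the median was -0.13 and none passed, and with the percentile over detected probes the median was -0.15 and 9 fell. Leaving out any one array other than control replicate 2 and OVX+CUMS replicates 2 and 5 left 8 to 11 genes. With slide as a block the median was -0.27 and 78 of 83 were below 0, against a median of -0.20 over all RefSeq mRNA probes. Rpl28 was at -0.14 ± 0.24 in that fit. The mean level of the 83 cytosolic ribosomal proteins was 7.29 to 7.45 on control and 7.06 to 7.23 on OVX+CUMS arrays, and it was 7.28 to 7.43 in OVX mice and 7.01 to 7.31 in CUMS mice. Mitochondrial ribosomal proteins, translation factors and tRNA synthetases held 1, 2 and 1 genes that passed of 78, 57 and 33.

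**Figure D4:**
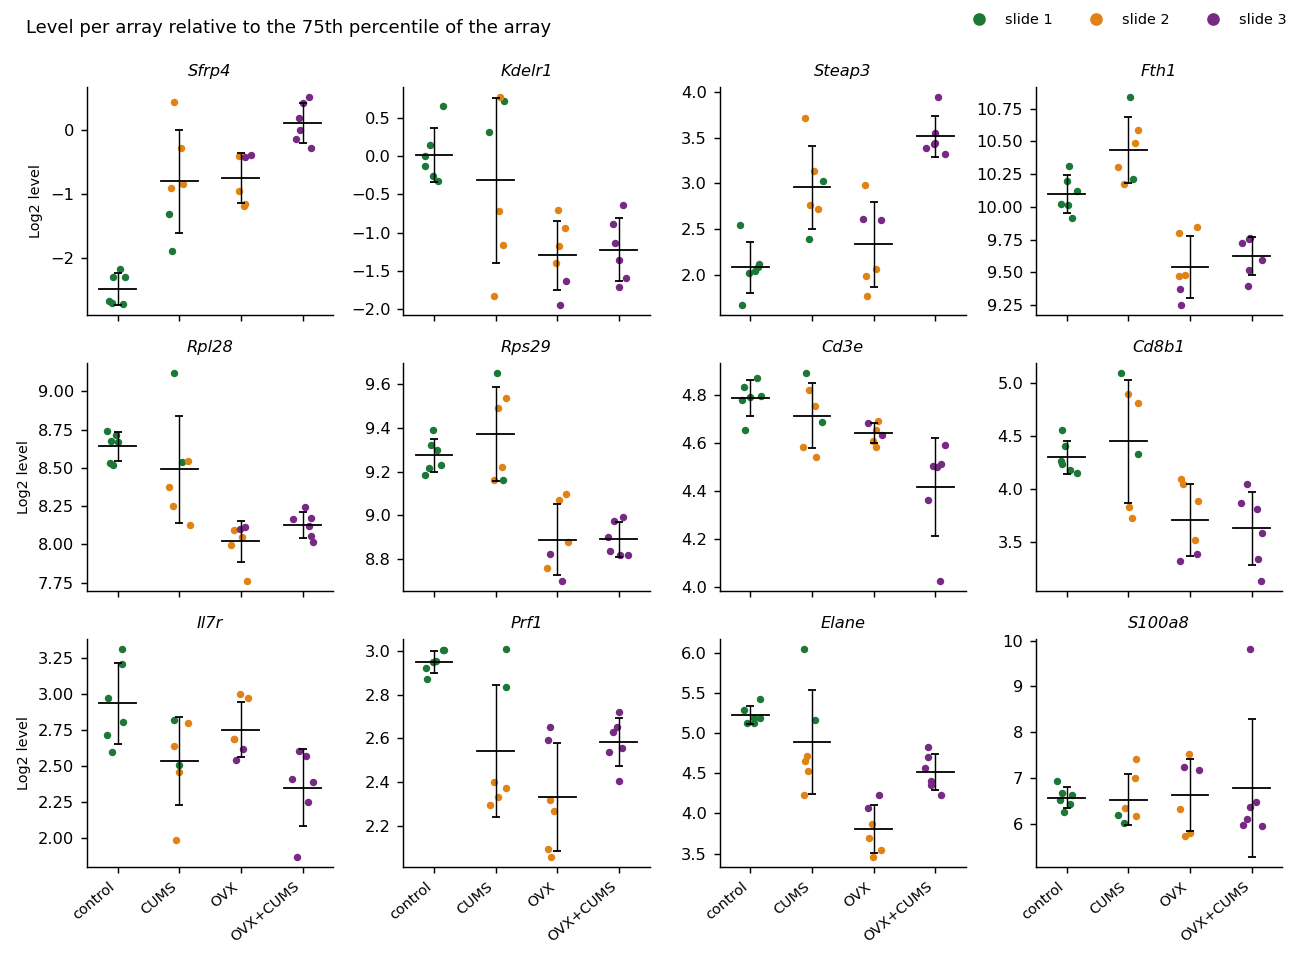
Log2 level of 12 genes on the 24 blood arrays, as log2 signal above or below the array's 75th percentile, by group and coloured by slide, with the mean and SD of 6 arrays. The OVX+CUMS arrays (all on slide 3) lie above the control arrays (all on slide 1) for Sfrp4 and Steap3 and below them for Rpl28, Cd3e and Prf1, and S100a8 is high in 1 OVX+CUMS array at 9.81.

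Of the tumour necrosis factor (TNF) ligands and receptors 18.2% passed, against 7.91% of all genes. The share was 7.14% of chemokines and receptors and 9.76% of interleukins and receptors. Among the 22 TNF ligands and receptors 3 fell and 1 rose. Tnfrsf4, the costimulator OX40 of T cells, fell by 0.56 ± 0.13, from 2.48 to 2.89 (median 2.67) to 1.62 to 2.40 (median 2.14). Tnfrsf25, a death receptor also found on T cells, fell by 0.46 ± 0.11 and the decoy receptor gene Tnfrsf26 by 0.50 ± 0.14, while its neighbour Tnfrsf22 rose by 0.57 ± 0.14. Of 28 chemokines and receptors, Cxcr3, a homing receptor of activated T and NK cells, fell by 0.56 ± 0.11 (adjusted p = 0.0038) from 0.86 to 1.24 (median 1.02) to 0.27 to 0.69 (median 0.47), and Ccl25, a chemokine of thymus and gut, rose by 0.82 ± 0.13 (second probe 0.32). Ccl17 (-0.48) and Ccl5 (-0.25) did not pass. Of 41 interleukins and receptors, Il2 (0.83 ± 0.16) and Il20 (0.50 ± 0.14) rose from levels far below the 75th percentile, and Il7r and Il3ra (-0.69 ± 0.20) fell. In the TNF list the median was -0.11, and -0.27 without replicate 5.

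In each list of genes that answer to glucocorticoids or oestrogen 1 gene passed, which is 5.56% and 10% of them, against 7.91% of all genes. Of 18 glucocorticoid-induced genes, the metallothionein gene Mt1 passed, and it fell, by 0.56 ± 0.14, from 2.75 to 3.42 (median 2.97) to 2.07 to 2.60 (median 2.55), with -0.37 at its second probe. Fkbp5, a chaperone that damps the glucocorticoid receptor, was 1.27 to 1.48 (median 1.37) in control and 1.13 to 1.37 (median 1.21) in OVX+CUMS mice, a difference of -0.14 ± 0.08 (adjusted p = 0.34). Sgk1 differed by 0.37 (0.18 without replicate 5) and Zbtb16 by -0.17. Of 10 oestrogen receptors and targets, Igf1 fell by 0.59 ± 0.15 (adjusted p = 0.019), and by 0.58 at its second probe. Esr2, the beta receptor, differed by 0.44 (adjusted p = 0.25) and Igfbp4 by 0.40. Greb1 differed by -0.29 at its brighter probe and by 1.15 (adjusted p = 0.00073) at the other. None of 42 interferon-stimulated genes passed in limma with all arrays (unadjusted p under 0.05 in 4), and 5 fell without replicate 5.

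Iron and mitochondrial genes held a few changes. Steap3, a ferrireductase of red cell precursors, was 1.68 to 2.55 (median 2.07) in control and 3.33 to 3.94 (median 3.44) in OVX+CUMS mice. It rose by 1.43 ± 0.14 (adjusted p = 2.1e-05), with 0.65 ± 0.46 with slide as a block. Ppox, an enzyme late in haem synthesis, rose by 0.51 ± 0.10, and Fth1, the iron store ferritin heavy chain, fell by 0.47 ± 0.10. Hmox1, which degrades haem, differed by -0.35 and by 1.04 at its second probe, neither past the threshold. The other 19 of 22 haem and iron genes did not pass, and the list median was -0.04, or -0.13 without OVX+CUMS replicate 5, 0.02 without control replicate 2 and 0.44 with slide as a block. Of 83 nuclear genes for oxidative phosphorylation, Cox4i2 (0.78 ± 0.12) and Cox7a1 (1.19 ± 0.21), tissue-restricted subunits of cytochrome oxidase, rose. Atp5j2, a subunit of ATP synthase, fell by 0.66 ± 0.16 (second probe -0.29, adjusted p = 0.051), and Atp5a1 differed by -0.32 (adjusted p = 0.061). The median of the list was -0.06, near that of all genes.

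Each list of chromatin genes described here held a few calls. Of 43 genes of the histone gene clusters, 3 passed (6.98%, against 7.91% of all genes). The linker histone gene H1f1 rose by 1.33 ± 0.15 and H4c11 and H4c12 fell by 0.39 ± 0.12 and 0.29 ± 0.09, and H2bu2 differed by -1.31 (adjusted p = 0.059). This list held 7 falls without control replicate 2, and none without control replicate 1, 3 or 6 or OVX+CUMS replicate 4, 5 or 6. Of 26 Polycomb group genes 4 passed (15.4%). Aebp2, a cofactor of PRC2, rose by 0.70 ± 0.13 (second probe -0.09) and Cbx6 by 0.96 ± 0.22, with its other probes at -0.11 and 1.22. Cbx7 and Phf1 fell by 0.54 ± 0.15 and 1.53 ± 0.43, both no longer past the threshold without control replicate 6 or OVX+CUMS replicate 3, 5 or 6. Of 18 genes of DNA methylation, Dnmt3b, a de novo methyltransferase, fell by 0.59 ± 0.12 (adjusted p = 0.0057; other probes -0.06 and -0.36), and Mbd5, Mbd3 and Tet1 differed by -0.49, 0.29 and -0.37, not past the threshold. Of 261 zinc finger genes named Zfp, 8 rose and 9 fell (6.51%). Without OVX+CUMS replicate 5, 11 rose and 5 fell, and 7 rose and 5 fell without control replicate 5 or OVX+CUMS replicate 3. Zfp874a rose by 1.29 ± 0.12, Zfp444 by 0.93 ± 0.14 (second probe -0.12), Zfp112 by 0.88 ± 0.14 and Zfp426 by 0.47 ± 0.08 (second probe 0.01).

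Genes best known from other tissues passed as well. Of 1343 olfactory and vomeronasal receptor genes on the array 225 were detected, and 22 of them rose and 32 fell, together 24% against 7.91% of all genes. Without OVX+CUMS replicate 5, 21 rose and 24 fell. Olfr800 was -2.73 to -1.78 (median -2.20) in control and -0.47 to 0.27 (median -0.22) in OVX+CUMS mice and rose by 2.01 ± 0.18. Olfr128 rose by 1.49 ± 0.15, Olfr1131 by 1.45 ± 0.12 and Olfr391 by 1.21 ± 0.15. In a fit of all 24 blood arrays 13 receptors rose and 3 fell, and with slide as a block the median of the list was 0.34 and 65 of the 225 were below 0. Receptors of this family are known from the nose and share sequence with one another.

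Members of 3 more families passed. Of 15 Hox and Rhox homeobox genes 2 rose and 5 fell (46.7%), or 1 and 4 without control replicate 2 or OVX+CUMS replicate 5. Rhox6, a placental gene, rose by 1.37 ± 0.14, and Rhox1, Rhox3f and Rhox4b fell by 0.65 ± 0.13, 0.53 ± 0.13 and 0.82 ± 0.20. Of 39 keratin genes and genes for keratin-associated proteins 3 rose and 3 fell (15.4%), and 1 fell without control replicate 4 and none without OVX+CUMS replicate 3. Krtap4-16 rose by 0.87 ± 0.13, Krt31 by 0.99 ± 0.16 and Krt73 by 0.73 ± 0.13, and Krtap19-4 fell by 0.51 ± 0.13. Of 34 potassium channel genes, which encode membrane proteins of many tissues, 3 rose and 5 fell (23.5%), with Kcne3, a regulatory subunit, at 1.00 ± 0.20 (-0.21 in replicate 5, -1.27 to -0.97 in the other OVX+CUMS arrays, and 0.84 without replicate 5). Kcnn3 and Kcnk7 fell by 0.60 ± 0.14 and 0.48 ± 0.13. Leaving out 1 array took the potassium channel count to between 3 and 7.

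Some probes were above background in one group alone. On all 6 OVX+CUMS arrays and none of the control arrays this held for 193 of the 55681 probes, and in the reverse direction for 2 probes. Of the 193, 78 were in lincRNA regions. The share of lincRNA regions among all probes of the array was not counted, so the 78 are not set against it. Control values of the 193 probes were not well above background and give only a bound, set on each array by the higher of the dimmest detected signal and the probe's own. By this bound Zdbf2, an imprinted gene, was at least 4.85-fold higher in OVX+CUMS mice, Sdr16c6, a retinol dehydrogenase gene, at least 3.54-fold, and the olfactory receptor genes Olfr1217 and Olfr594 at least 3.16-fold and 3.15-fold. The same set held Sry, a gene of the Y chromosome, at least 1.97-fold higher, although all mice were female. What its probe read was not tested. Sox18, a transcription factor of vessel lining, was at least 1.69-fold lower. These probes were chosen by where they were above background, so the bounds are a description and no test is given. The lower local background of slide 3, at 17 units against 19, moved with this result, and its part in it was not tested.

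The 2738 probes were then followed on the 12 CUMS and OVX arrays, which the comparison had not used. This comparison of slides within a group was added after the data were seen. Within a single group, the arrays on different slides differed for these probes. The mean level of the 1255 risen probes was -0.77 to -0.35 on the control arrays of slide 1. In CUMS mice it was -0.48 and 0.05 on the 2 arrays of slide 1 and -0.06 to 0.47 on the 4 arrays of slide 2. In OVX mice it was -0.41 to -0.09 on slide 2 and -0.05 and 0.03 on slide 3, where the OVX+CUMS arrays had 0.22 to 0.66. Among the CUMS mice 88.1% of the risen probes were higher on slide 2 than on slide 1 (median 0.45), against 56.0% of the probes that had not passed. Among the OVX mice 72.7% were higher on slide 3 than on slide 2 (median 0.25), against 58.9%.

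For the 1483 fallen probes the mean level was 2.49 to 2.83 on the control arrays, 2.62 and 3.13 on the CUMS arrays of slide 1, and 1.97 to 2.47 on those of slide 2. It was 1.75 to 1.97 in OVX mice on slide 2, 1.70 and 1.73 in OVX mice on slide 3 and 1.84 to 2.20 in OVX+CUMS mice. The CUMS arrays of slide 1 lay in or above the range of the controls beside them, and those of slide 2 lay below it. Of these probes 13.6% were higher on slide 2 than on slide 1 among CUMS mice (median -0.62, against 56.0% of the probes that had not passed) and 41.7% higher on slide 3 than on slide 2 among OVX mice (median -0.08, against 58.9%). When slide was a block, the risen probes had a median of 0.24, with the sign of the group difference in 70.8%, and the fallen probes a median of 0.15, with the same sign in 38.6%, while 11891 of the 22448 probes that had not passed kept theirs. Among the 6 OVX mice alone, 1208 probes passed the adjusted threshold between the 2 arrays of slide 3 and the 4 of slide 2 (474 higher, 734 lower). Of the risen probes 22 were among these, all higher on slide 3, of the fallen probes 60 were higher and 98 lower, and the remaining 392 higher and 636 lower ones had not passed between OVX+CUMS and control mice. Among the 6 CUMS mice, 0 probes passed in limma between the 4 arrays of slide 2 and the 2 of slide 1, and 2398 had an unadjusted p under 0.05. The part of the slides in the difference between OVX+CUMS and control mice cannot be told apart from that of the treatments.

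**Figure D5:**
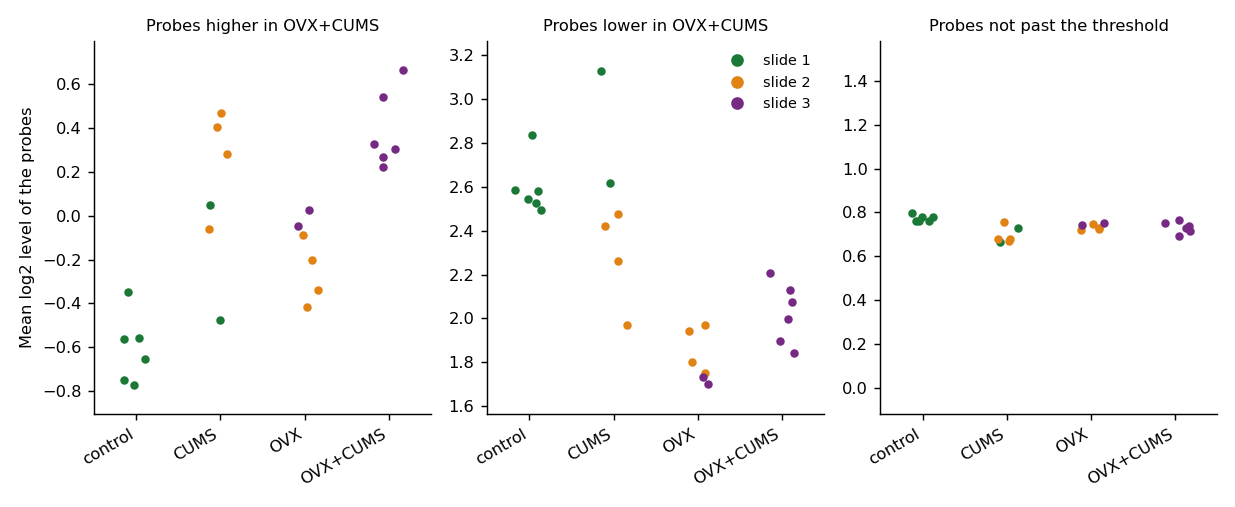
Mean log2 level, over the probes of each class, on each of the 24 blood arrays, by group and coloured by slide. Risen probes (left) lie at -0.77 to -0.35 in control arrays and 0.22 to 0.66 in OVX+CUMS arrays, and the CUMS arrays, at -0.48 to 0.47, overlap both, fallen probes (middle) are higher on slide 1 than on slide 2 among CUMS arrays, and probes not past the threshold (right) lie between 0.66 and 0.80 on every array.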

How the data were processed

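Processed signal intensity was deposited as scanner output for each array, which the authors made with Agilent Feature Extraction (background subtracted, one colour). The deposited log2 values of the authors, from GeneSpring with a shift of each array by its 75th percentile, served as an alternative. Of single-spot values, 100% lay within 0.001 log2 of the present ones, up to a constant per array. The labels gave the groups, and slide numbers came from the array files.

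Control spots and spots marked as outliers were left out, spots of a probe were averaged, and log2 of the processed signal minus each array's 75th percentile was taken. Probes well above background on all 12 arrays were tested with limma (version 3.58.1, R 4.3.3) without covariates, and p-values were adjusted by Benjamini-Hochberg over all 25186 probes, with a threshold of 0.05. Tables and figures were made in Python 3.11.15. The fit was tested on simulated data. Symbols came from the array files and, by RefSeq accession, from RefSeq gene names (26762 of 28390 accessions matched). A gene was represented by its brightest detected probe. Single array measures were compared by exact permutation.

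The members and gene lists were chosen with earlier results of these data known. Named genes were the 6 largest rises and 6 largest falls at any signal and again at a signal of at least 1000, among probes past the threshold with and without OVX+CUMS replicate 5 and with groups that did not overlap, the 4 members of each described list with the smallest p, and the defining markers of cell types. A few genes that met this rule are not reported here. The fit was repeated under 26 alternatives, among them quantile normalization, normexp background correction (offset 50), a signal above 50, slide and replicate number as blocks, and leaving out each array. The number of arrays limits the precision. Arrays of the prefrontal cortex were not used here.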

Additional observations from a re-analysis of the deposited data

Results flagged for a closer look

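For each named gene and group of 6 arrays, the gap between the highest or lowest array and its nearest neighbour was compared with the whole range and set against Dixon's critical value. Of 278 such groups 29 exceeded it, and since chance flags about 1 in 20 groups, about 13.9 would be reached by chance. Of the 29, 18 were OVX+CUMS replicate 5, 10 were control replicate 2 and 1 was OVX+CUMS replicate 4.

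OVX+CUMS replicate 5 stood above its group in the neutrophil genes Camp (5.35), Lcn2 (6.96), Ltf (5.26), S100a9 (11.2) and S100a8 (9.81) and in the monocyte genes Cd14 (0.96), Clec4a3 (2.94), Lyz2 (6.06), Csf1r (7.16) and Cx3cr1 (3.60). It was also the highest array for Il3ra (0.50), Sgk1 (2.43) and Kcne3 (-0.21). It stood below its group in the T cell genes Lef1 (3.22), Cd3g (1.66) and Lck (4.60) and the B cell genes Fcmr (5.07) and Vpreb3 (3.55). Higher myeloid levels and lower levels of these T and B cell genes were thus seen in the same array.

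Control replicate 2 was the lowest control for the platelet genes Vwf (4.87), Gp6 (1.84), Ppbp (5.93) and Pf4 (7.19), and the highest for Rtl6 (3.37), Lcn2 (3.73), Cd14 (-1.92), Csf1r (5.97), Serpina1a (-1.06) and Apoa2 (5.32). OVX+CUMS replicate 4 was the highest of its group for Steap3 (3.94). All values are log2 levels relative to the 75th percentile of the array.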

How the results depend on the processing

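Against 2738 probes past the threshold, 1788 passed with the spike-in shift, 1303 in the fit of all 24 blood arrays and 0 with slide as a block in limma (1573 at an unadjusted p under 0.05); leaving out 1 array gave 2084 (OVX+CUMS replicate 1) to 2815 (OVX+CUMS replicate 6). The replicate numbers did not pair the arrays, with correlations of same-numbered deviations of -0.32 to 0.43 and the best partner of the same number for replicate 1 alone; with the replicate block 1777 probes passed, 58.6% of them higher. The log2 difference in the 75th percentile was 0.12 to 0.26 without 1 array, and 0.26 with an exact p of 0.048 without OVX+CUMS replicate 6. Of 87 named genes past the threshold, 60 stayed past it with the spike-in shift, 72 with quantile normalization, 78 with the percentile over detected probes, 66 with the replicate block and 72 to 83 without 1 array.

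With slide as a block 34 of 39 named rises and 20 of 48 named falls kept their sign, in a fit whose median SE over all probes was 0.381. Among rises, Abcg4 was at -0.23, Il2 at -0.38, Il20 at -0.076, Cox7a1 at -0.39 and Zfp874a at -0.038. Among falls, Kdelr1 was at 0.75, D0Kist5 at 1.06, Ifna16 at 0.96, Pak7 at 1.24, Taar4 at 0.58, Mrvi1 at 0.19, Serping1 at 0.57, Fgfbp3 at 0.42, Chrna4 at 0.26, Ppp1r14c at 0.16, Caln1 at 1.15, Cd8b1 at 0.26, Hba-a2 at 0.33, P2rx1 at 0.16, Tnfrsf4 at 0.58, Mt1 at 0.27, Igf1 at 0.15, Fth1 at 0.00016, Atp5j2 at 0.11, Cbx7 at 0.54, Dnmt3b at 0.28, Kcnn3 at 0.51, Kcnk7 at 0.93, Rhox3f at 0.14, Rhox4b at 0.90, Krtap19-4 at 0.078, Fgb at 0.67 and Apoa2 at 0.13. The cause was not tested. Signal over background limits the dim probes, among which most of the larger rises lay.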
